A study of Mus musculus with 4 samples.

Results

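The 36 genes described here encode the enzymes and transporters of glycolysis, the oxidative and non-oxidative enzymes of the pentose phosphate pathway, and the oxygen-sensing machinery with some of its best known target genes. They were chosen by name: each non-control probe whose gene name in the array files equalled 1 of the 36 names was taken, which gave 89 of 56605 probes and 36 of 37074 gene names. Messenger RNA was measured on 4 one-colour microarrays (Cy3-labelled RNA, 60-base probes) in RAW264.7, an established mouse macrophage line. Wild-type cells and cells labelled Mfp2-/- were each measured without stimulation and after stimulation with lipopolysaccharide (LPS), a constituent of the outer membrane of Gram-negative bacteria that Toll-like receptor 4 recognises. Hsd17b4 encodes Mfp2, an enzyme that peroxisomes use to shorten very long and branched chain fatty acids, and cells without it are called knockout below. The labels give neither the LPS dose nor its duration, nor how the knockout was made or how many clones it comprises. With 1 array in each group, the differences below rest on no replicates and carry no p-values.

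Glycolysis converts glucose to pyruvate in the cytosol, and lactate dehydrogenase and the monocarboxylate transporters then dispose of pyruvate as lactate. The pentose phosphate pathway branches off at glucose 6-phosphate and supplies NADPH and ribose. Macrophages activated by LPS are known to take up more glucose and release more lactate, and the transcription factor HIF-1, whose alpha subunit is destroyed through the EGLN prolyl hydroxylases when oxygen is plentiful, is a known activator of most glycolytic genes.

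Values are log2 levels: the log2 of the processed signal minus the 75th percentile of all non-control probes on that array, so that 0 is the 75th percentile of an array. A level depends on the probe and is not compared between genes. A difference of 1 (2-fold) on arrays where the probe was well above background is called higher or lower, and the share of all genes called by the same rule is given beside the count of members. Probes printed at 10 places on each array give an error within an array only. From these, the typical technical SD of a difference of the members was 0.068 for LPS in wild type, 0.123 for LPS in knockout, 0.089 for knockout against wild type without LPS and 0.109 with LPS. A lower level can come from fewer cells that express a gene or from less RNA in each cell, which cannot be told apart.

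The 75th percentile signal lay between 303 and 370 on the 4 arrays, between 47.4% and 49.7% of non-control spots were well above background, and 0 were saturated. All arrays came from 1 slide and 1 scan, and the place on the slide cannot be told apart from the group. Hsd17b4 had log2 levels of 3.65 and 3.18 on the untreated and LPS arrays of wild type and of 2.78 and 2.0 on those of the knockout. The knockout difference was -0.86 without LPS and -1.17 with LPS, and the probe stayed well above background on every array. Since the deleted stretch is not described in the labels, this probe does not settle the genotype. All 9 macrophage markers examined, among them Csf1r, Cd68 and Lyz2, were above background on all 4 arrays. The fibroblast collagens Col1a1, Col1a2 and Col3a1, the B cell gene Cd79a and the epithelial genes Epcam, Krt8 and Krt18 were above background on none. The epithelial gene Cdh1 was above background on the wild-type LPS array, at -2.94, and the untreated knockout array, at -3.78, and the B cell gene Ms4a1 on the untreated wild-type array alone, at -3.44. The T cell genes Cd3e and Cd4 were above background on all 4 arrays, and Dcn and Cd3d were above background on the 2 LPS arrays only, with Dcn at -2.29 and -3.21 and Cd3d at -2.99 and -3.15. The part of these genes in the results was not tested. Of the 36 members, 35 were well above background on all 4 arrays, and Egln3, a prolyl hydroxylase, was not well above background on any.

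With LPS in wild type, 3 of the 35 measured members were higher (Slc2a6, Hk2 and Hk3), where 9.69% of all 18213 genes measured were, and 2 were lower (Pfkm and Pdk1), where 8.58% of all genes were. With LPS in the knockout, 5 members were higher (Slc2a6, Hk2, Pfkp, Eno2 and Vegfa), where 11% of all 18402 genes were, and 4 were lower (Pfkm, Pdk1, Egln1 and Ankrd37), where 12.5% were. These counts lie near the shares of all genes. The median difference of the members was 0.21 in wild type and 0.27 in the knockout, and over all genes it was 0.01 and -0.01. The LPS difference had the same sign in both genotypes in 34 of 35 members, the exception being Pfkfb4 at 0.27 and -0.11. The same share over all genes is not given here, so this count has no baseline. The LPS difference lay within 2 technical SDs of 0 in 7 members in wild type and 8 in the knockout. The difference between the 2 LPS responses reached 2-fold in 0 members in either direction, where 1.69% of all genes had a response higher by 2-fold in the knockout and 2.92% a lower one. Hence a member called with LPS in a single genotype is not shown to respond differently in the other.

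**Figure D1:**
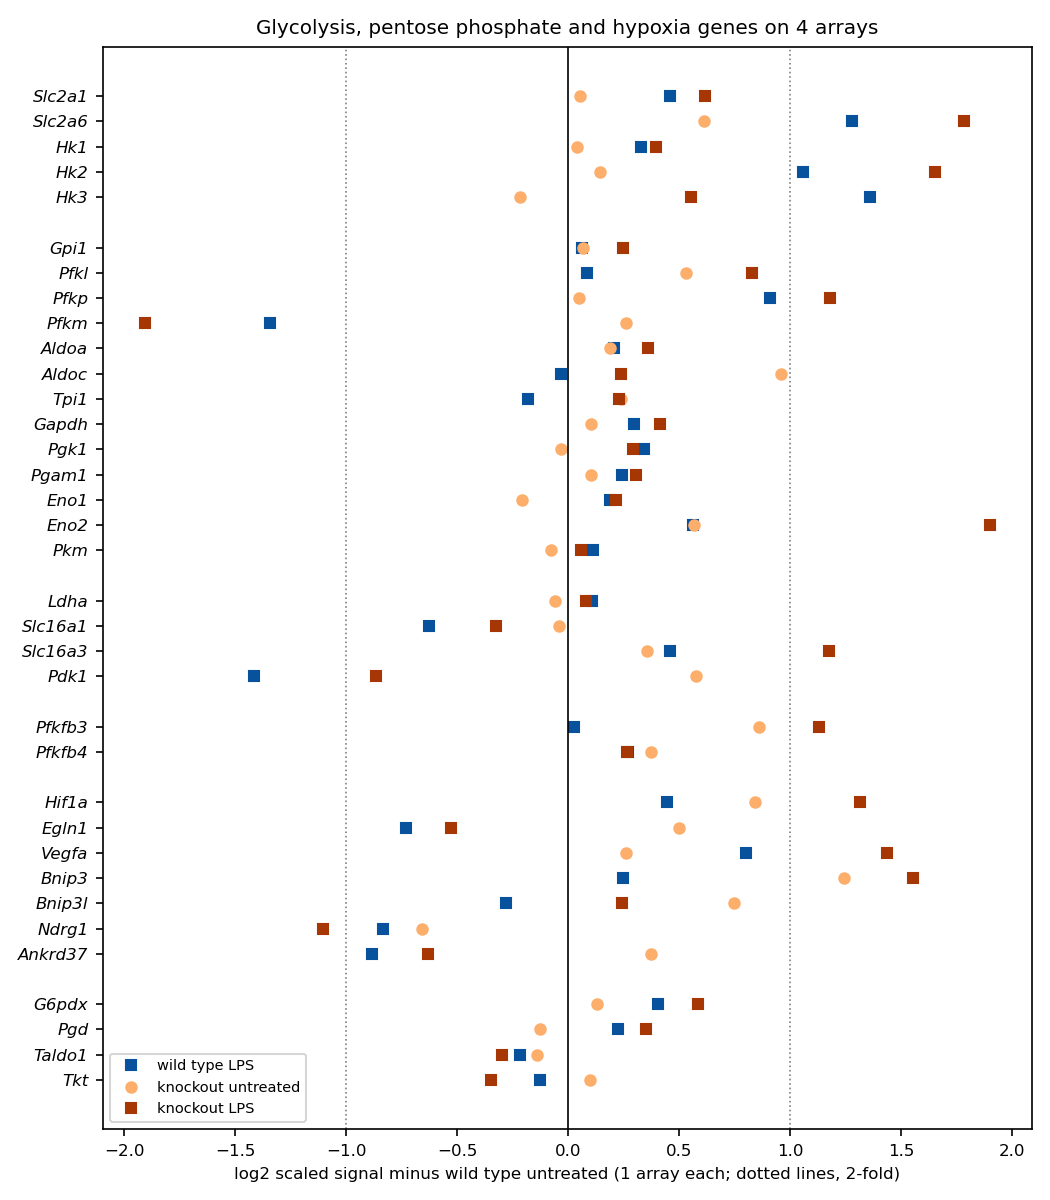
Differences in log2 level from the untreated wild-type array for the 35 measured members, grouped by role from glucose entry (top) to pentose phosphate enzymes (bottom), with 1 array for each symbol and dotted lines at 2-fold. Slc2a6, Hk2 and Hk3 lie right of the 2-fold line on the wild-type LPS array, Pfkm and Pdk1 lie left of it, and the pentose phosphate enzymes lie within it on every array.

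Of the 5 genes of glucose entry and phosphorylation, 3 were higher with LPS in wild type (Slc2a6, Hk2 and Hk3), where 9.69% of all genes were, and 2 in the knockout (Slc2a6 and Hk2), where 11% were. All 5, the transporters Slc2a1 and Slc2a6 and the hexokinases Hk1, Hk2 and Hk3, had a positive LPS difference in both genotypes, with medians of 1.06 in wild type and 0.77 in the knockout. Slc2a6, a glucose transporter of the facilitative family found on lysosomal membranes in macrophages, had levels of 4.65 and 5.92 on the untreated and LPS arrays of wild type and of 5.26 and 6.43 on those of the knockout. Both LPS arrays were thus above both untreated arrays, and the LPS differences were 1.28 (2.42-fold) and 1.17 (2.25-fold). A further probe of the gene gave 1.35 and 1.27. The call was lost in wild type with the mean of probes (0.97) and in the knockout with spike-in centring (0.94) and the deposited table (0.98). Slc2a6 was also higher in the knockout, by 0.61 without LPS and 0.51 with LPS, short of 2-fold.

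Hk2, the inducible hexokinase that traps glucose as glucose 6-phosphate, had levels of 2.45, 3.51, 2.60 and 4.10 in wild type, wild type with LPS, knockout and knockout with LPS, the order used for every gene below. The 2 untreated arrays lay close together and both LPS arrays lay above them, with LPS differences of 1.06 (technical SD 0.095) and 1.51 (technical SD 0.137). The wild-type difference of Hk2 fell under 2-fold under 4 of the alternative settings, with a lowest value of 0.84, while the knockout difference stayed between 1.27 and 1.65. Hk3, the hexokinase found mainly in myeloid cells, had levels of 4.15, 5.51, 3.93 and 4.70. Its LPS difference was 1.36 in wild type and 0.77 in the knockout, and its other probe gave 1.42 and 1.07, so that the knockout call depends on the probe. The wild-type LPS array carried the highest Hk3 level of the 4, and the knockout LPS array differed from it by -0.81.

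Slc2a1, the main glucose transporter of macrophages, had levels of 6.31, 6.76, 6.36 and 6.92, with LPS differences of 0.46 and 0.57. Hk1, the constitutive hexokinase, had levels of 5.86, 6.19, 5.90 and 6.26, with LPS differences of 0.33 and 0.36. Its 3 probes above background ranged from 0.18 to 0.85 in wild type and from 0.28 to 0.86 in the knockout. Both genes were higher on both LPS arrays, neither by 2-fold, and their genotype differences were 0.16 or less.

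The sequences just upstream of the transcription starts of Hk2 and Slc2a6 are shown because these were the members higher with LPS in both genotypes. They are from RefSeq (GRCm38.p6), 5′ to 3′ on the gene's strand, with capitals on the core of the hypoxia response element, the site bound by HIF-1, searched as ACGTG and GCGTG on both strands (read as CACGT and CACGC on the other strand). The Hk2 stretch is chr6:82774484-82774524 on the minus strand and ends 30 bases before the start. The Slc2a6 stretch is chr2:27028038-27028078 on the minus strand and ends 40 bases before the start.
Hk2: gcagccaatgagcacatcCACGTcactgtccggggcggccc
Slc2a6: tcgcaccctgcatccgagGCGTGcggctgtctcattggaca

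Of the 13 glycolytic enzymes proper, 0 were higher with LPS in wild type, where 9.69% of all genes were, and 1 was lower (Pfkm), where 8.58% were. In the knockout 2 were higher (Pfkp and Eno2), where 11% of all genes were, and 1 was lower (Pfkm), where 12.5% were. The LPS differences ran from -1.34 (Pfkm) to 0.91 (Pfkp) in wild type and from -2.17 (Pfkm) to 1.33 (Eno2) in the knockout. Their median LPS differences were 0.19 in wild type and 0.20 in the knockout, and 10 of 13 lay above 0 in each genotype. When arrays were centred on spike-in probes instead, the median of all genes moved to -0.20 in wild type and -0.24 in the knockout, the medians of the enzymes to -0.03 in each, and 5 and 6 of 13 lay above 0. That centring shifts all genes of an array by 1 constant, so the sign of a small LPS difference of these enzymes is not settled without a choice of scaling. On the reported scale 10 of 13 lay above the median of all genes in each genotype, and after quantile normalization 8 did in wild type and 9 in the knockout.

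Phosphofructokinase, the committed step of glycolysis, showed its 3 subunit genes moving apart. Pfkm, the muscle-type subunit, had levels of 1.48, 0.14, 1.74 and -0.42. Both LPS arrays lay below both untreated arrays, with differences of -1.34 (2.54-fold lower) in wild type and -2.17 (4.49-fold lower) in the knockout, the second with a technical SD of 0.39 because the signal was dim. Pfkp, the platelet-type subunit, had levels of 4.43, 5.33, 4.47 and 5.60. Its LPS differences were 0.91 in wild type and 1.13 in the knockout, and the 2 untreated arrays differed by 0.05. The knockout call was lost with quantile normalization (0.99), spike-in centring (0.90) and the deposited table (0.98). All 5 Pfkp probes had positive LPS differences, from 0.21 to 0.94 in wild type and from 0.75 to 1.53 in the knockout, where 4 of 5 reached 2-fold. Pfkl, the liver-type subunit, had levels of 2.44, 2.52, 2.97 and 3.27, with LPS differences of 0.08 and 0.30. It differed more by genotype, being higher in the knockout by 0.53 without LPS and 0.74 with LPS.

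A probe of Pfkp that spans an exon junction is printed because it reads spliced mRNA: by the coordinates in the array file (mm9) its 60 bases align to 2155 bases of genome at chr13:6581718-6583872, minus strand, so it crosses an intron.
Pfkp probe: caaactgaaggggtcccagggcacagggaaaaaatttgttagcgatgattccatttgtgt

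For enolase and aldolase the tissue-restricted isozymes varied more between arrays than the ubiquitous ones. Eno1, the ubiquitous enolase, had levels of 7.77, 7.95, 7.56 and 7.98. Eno2, the isozyme known from neurons and also a HIF-1 target, had levels of -0.40, 0.16, 0.17 and 1.5. The knockout LPS array stood above the other 3, by 1.33 (2.52-fold) over knockout without LPS and by 1.34 over wild type with LPS. The technical SD of these 2 Eno2 differences was about 0.15, and normexp background correction brought them to 0.91 and 0.86, under 2-fold. Aldoa, the main aldolase, had levels of 9.10, 9.31, 9.29 and 9.46. Aldoc, the brain-type aldolase, had levels of 5.08, 5.04, 6.03 and 5.31, highest on the untreated knockout array. Its 3 probes placed it 0.93 to 0.97 above wild type there, just short of 2-fold, and its LPS difference was -0.04 in wild type and -0.72 in the knockout.

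The remaining trunk enzymes moved little. Gapdh, used as a reference gene in many studies, had levels of 8.51, 8.81, 8.62 and 8.93, and its 7 probes gave LPS differences of 0.11 to 0.38 in wild type and 0.25 to 0.63 in the knockout. Pgk1 had LPS differences of 0.34 and 0.32 and Pgam1 of 0.24 and 0.20. Gpi1 had 0.06 and 0.18, and Pkm, the last enzyme of the pathway, had 0.11 and 0.13. Those of Gpi1 and Pkm were within 2 technical SDs of 0 in both genotypes. Tpi1 had levels of 7.19, 7.01, 7.43 and 7.42, and 3 of its 4 probes gave LPS differences in wild type between -0.20 and -0.18. The fourth, a dim probe with levels between -3.63 and -2.71, gave 0.92.

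Of the 4 genes that handle lactate and pyruvate, 1 (Pdk1) was lower with LPS in each genotype, where 8.58% of all genes were in wild type and 12.5% in the knockout. Pdk1 encodes a kinase that shuts pyruvate dehydrogenase and so keeps pyruvate out of the mitochondrial cycle, and it is a textbook HIF-1 target. Pdk1 had levels of 3.12, 1.71, 3.70 and 2.26, both LPS arrays below both untreated arrays. The differences were -1.42 (2.67-fold lower) and -1.44 (2.72-fold lower), and they stayed between -1.67 and -1.27 under the alternative settings in both genotypes. Of the 4 probes above background on the arrays compared, 3 gave a decrease of 2-fold or more in each genotype. The fourth, the probe nearest the gene's 5′ end at chr2:71713523-71713582 (mm9, plus strand), gave -0.10 and 0.19. The decrease was thus seen by the downstream probes, among them a junction-spanning probe at chr2:71721635-71721929 (mm9, plus strand), which gave -1.37 and -1.70. That probe and the stretch upstream of 1 of 2 listed starts (GRCm38.p6 chr2:71873128-71873168, plus strand, ending 56 bases before it, the other start having no match) are printed because Pdk1 and the Hk2 and Slc2a6 genes, which carry the same core motif, differed in direction.
Pdk1 probe: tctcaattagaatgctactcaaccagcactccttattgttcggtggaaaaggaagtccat
Pdk1 upstream: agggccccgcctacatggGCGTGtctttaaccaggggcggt

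Ldha, the lactate dehydrogenase subunit typical of glycolytic cells, had levels of 8.07, 8.17, 8.01 and 8.14, and its LPS differences of 0.10 and 0.14 lay within 2 technical SDs of 0. The transporters that carry lactate across the membrane differed in direction. Slc16a3, the lactate exporter MCT4, had levels of 5.94, 6.40, 6.29 and 7.11, with LPS differences of 0.46 and 0.82 and the highest level on the knockout LPS array. Slc16a1, the transporter MCT1, had levels of 4.55, 3.92, 4.51 and 4.22, with LPS differences of -0.63 and -0.29. Neither transporter reached 2-fold. The 2 bifunctional enzymes that set fructose 2,6-bisphosphate, the strongest activator of phosphofructokinase, did not respond to LPS by 2-fold. Pfkfb3 had levels of 1.55, 1.57, 2.40 and 2.67, with LPS differences of 0.03 and 0.27. Pfkfb4 had levels of 1.79, 2.05, 2.16 and 2.05.

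**Figure D2:**
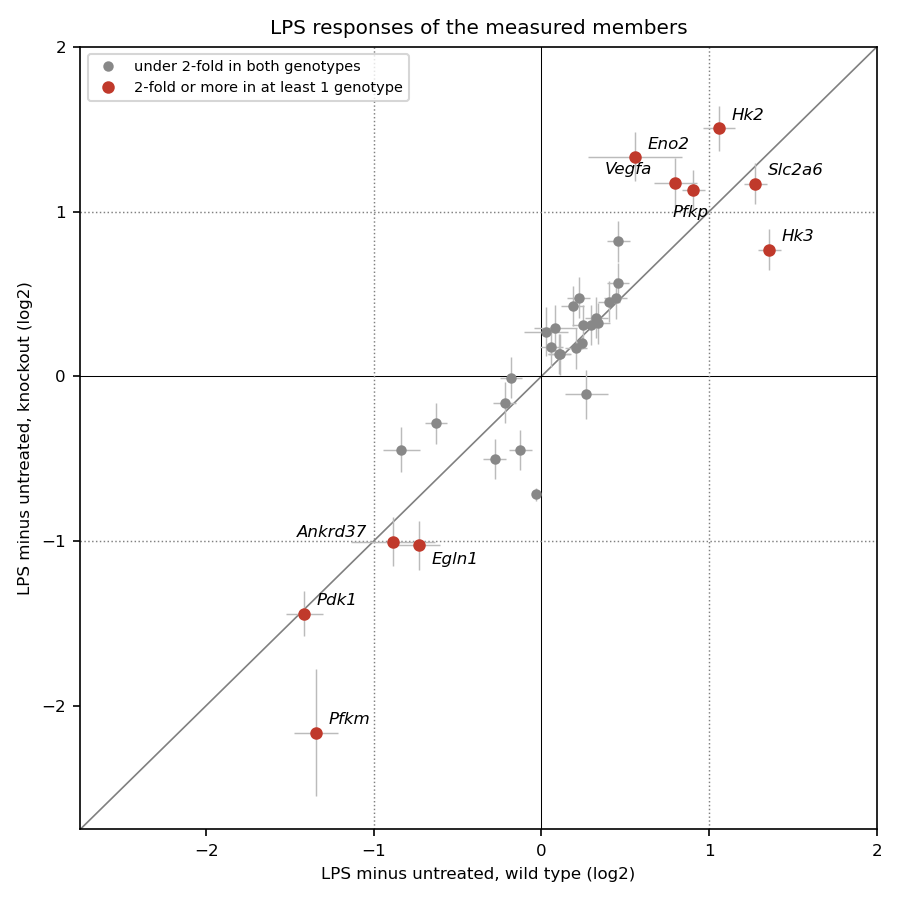
LPS difference in wild type (x axis) against that in the knockout (y axis), both as log2, for the 35 measured members, with grey bars for 1 technical SD each way and the diagonal for equal responses. The 10 members past 2-fold in at least 1 genotype are named. Hk3 lies below the diagonal, at 1.36 and 0.77, and Eno2 above it, at 0.56 and 1.33.

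Oxygen sensing and hypoxia targets did not move as a block with LPS. Of the 7 measured members, 3 had a positive LPS difference in each genotype (Hif1a, Vegfa and Bnip3) and 4 a negative one (Egln1, Bnip3l, Ndrg1 and Ankrd37), with medians of -0.28 in wild type and -0.45 in the knockout. Hif1a, the oxygen-regulated subunit of HIF-1, had levels of 3.50, 3.94, 4.34 and 4.81 and LPS differences of 0.44 and 0.47. Vegfa, the angiogenic growth factor, had levels of 0.37, 1.17, 0.63 and 1.81. Its LPS differences were 0.80 and 1.18, and its 3 probes ranged from 0.80 to 1.94 in wild type, with 2 past 2-fold, and from 1.18 to 2.04 in the knockout, with all 3 past 2-fold. With spike-in centring the knockout difference was 0.94, under 2-fold. Both LPS arrays were above both untreated arrays for Vegfa and the size depended on the probe.

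Egln1, the prolyl hydroxylase that marks HIF-1 alpha for destruction and is itself a HIF-1 target, had levels of 2.39, 1.66, 2.89 and 1.87. Both LPS arrays were below both untreated arrays, with differences of -0.73 in wild type and -1.03 in the knockout. Ankrd37, another HIF-1 target, had levels of 0.82, -0.06, 1.20 and 0.19, and LPS differences of -0.89 and -1.0. The knockout calls of Egln1 and Ankrd37 lay at the edge of 2-fold, since the differences ranged from -1.26 to -0.88 for Egln1 and from -1.24 to -0.86 for Ankrd37 over the alternative settings. Ndrg1, a stress-induced gene, had levels of 3.79, 2.96, 3.13 and 2.69, lower on both LPS arrays than on the untreated array of the same genotype. Upstream stretches of Egln1 (chr8:124949300-124949340, minus strand, ending 46 bases before the start) and Ankrd37 (chr8:45999851-45999874, minus strand, ending 1 base before the start) are shown for the same core motif (GRCm38.p6). A Vegfa stretch (chr17:46025352-46025392, minus strand) is shown with them, since Vegfa differed in direction from both. It ends 189 bases before 1 of 2 listed starts, the other having no match. That start lies downstream of the other, so the Vegfa stretch comes from within the gene and not from before its first listed start.
Egln1: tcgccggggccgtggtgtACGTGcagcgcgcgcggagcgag
Ankrd37: acatgtcagtgtttgggtACGTGa
Vegfa: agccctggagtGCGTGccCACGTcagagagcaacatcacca

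**Figure D3:**
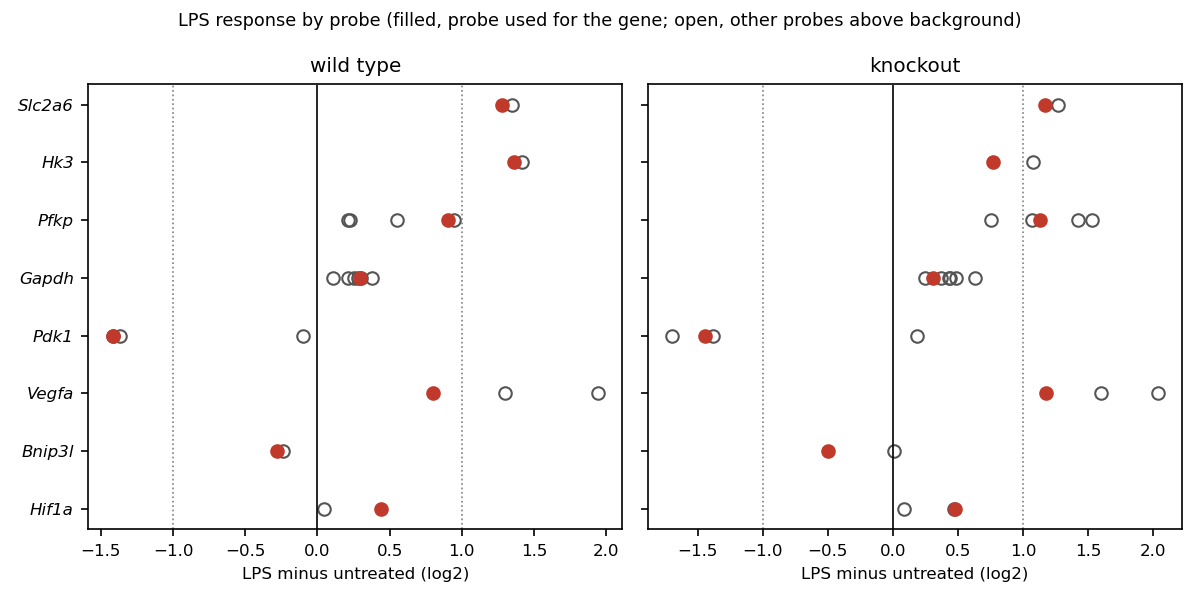
LPS differences (log2) by probe in wild type (left) and knockout (right) for 8 members with more than 1 probe, with filled circles for the probe that represents the gene and open circles for its other probes above background. The probes of Slc2a6 and Gapdh lie close together, whereas a single Pdk1 probe lies near 0 and the Vegfa probes span 0.80 to 1.94 in wild type. The lowest Hif1a circle in each panel is a probe on the strand opposite to the gene, at 0.04 and 0.08.

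The 4 pentose phosphate enzymes were not called in any comparison. G6pdx, the first and NADPH-producing step, had levels of 5.94, 6.34, 6.06 and 6.52, with LPS differences of 0.40 and 0.45. Pgd, the next NADPH-producing enzyme, had LPS differences of 0.22 and 0.48. The non-oxidative enzymes had differences of -0.22 and -0.16 for Taldo1 and of -0.13 and -0.45 for Tkt. None of these reached 2-fold, and the differences of Tkt in wild type and of Taldo1 in the knockout lay within 2 technical SDs of 0. Among 8 further measured genes of the pathway and of ribose use, a list that was also chosen with earlier results of these data known, 0 were higher in either genotype. Prps2, a phosphoribosyl pyrophosphate synthetase, was lower in both at -1.69 and -2.36, and Prps1 at -1.38 and Shpk at -1.07 were lower in the knockout. With LPS 9.69% of all genes were higher and 8.58% lower in wild type, and 11% and 12.5% in the knockout.

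Untreated knockout and wild-type cells were compared next. Of the 35 members 1 was higher in the knockout (Bnip3), where 3.08% of all 18415 genes were, and 0 were lower, where 3.9% were. With LPS on both sides 3 were higher (Bnip3, Pfkfb3 and Eno2), where 1.85% of all 17739 genes were, and 0 were lower, where 4.39% were. The median of the members was 0.14 without LPS and 0.19 with LPS, and that of all genes 0.06 and 0.05. In both conditions 23 members had a higher level in the knockout and 6 a lower one. The same shares over all genes are not given here, so these 2 counts have no baseline. The difference was within 2 technical SDs of 0 in 14 of 35 members without LPS and in 18 with LPS. The genotype comparison without LPS and the LPS comparison share their untreated arrays, and the comparison with LPS shares the LPS arrays, so these differences are not independent of each other.

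Bnip3, a mitochondrial outer membrane protein that starts mitophagy and is a strong HIF-1 target, had levels of 4.40, 4.65, 5.64 and 5.95. Both knockout arrays lay above both wild-type arrays, by 1.24 (2.36-fold, technical SD 0.089) without LPS and 1.30 (2.47-fold, technical SD 0.109) with LPS, and LPS itself moved the gene by 0.25 and 0.31. These genotype differences stayed between 1.20 and 1.47 in all settings. Bnip3 has 1 probe, printed at 1 place, so no second probe checks these values and the mean of probes could not change them. Its relative Bnip3l, also a mitophagy receptor, had levels of 3.64, 3.36, 4.38 and 3.88, higher in the knockout by 0.74 and 0.52. Pfkfb3 was higher in the knockout by 0.86 without LPS and 1.1 (2.14-fold) with LPS. Hif1a was higher by 0.84 and 0.87, but a dim probe of it near background gave -0.03 without LPS. Another probe gave 0.87 and 0.90, but by the file's coordinates it lies on the strand opposite to the gene. It is therefore not taken as a further reading of Hif1a mRNA. Pdk1 was higher in the knockout by 0.58 and 0.55.

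Over the 7 measured hypoxia members the median knockout difference was 0.50 without LPS and 0.52 with LPS, with 6 of 7 above 0 in each condition. Ndrg1 was the exception, at -0.66 and -0.27. These medians kept their sign under every scaling tried, between 0.43 and 0.55 without LPS and between 0.44 and 0.69 with LPS. This is a weak check, since the scalings moved the median of all genes by less than the size of these medians. That of all genes lay between 0.02 and 0.10 without LPS and between -0.01 and 0.21 with LPS. With LPS the differences of Egln1, Ndrg1 and Ankrd37 lay within 2 technical SDs of 0. Only Bnip3 among the 7 was past 2-fold in each of the 2 conditions. Hk3 was lower in the knockout as well, at -0.22 without LPS and -0.81 with LPS, short of 2-fold. The stretches upstream of Bnip3 (chr7:138909519-138909559, minus strand, ending 13 bases before the start) and of a Pfkfb3 start (chr2:11553967-11554007, minus strand, ending 38 bases before the start) are printed as those of 2 of the 3 members called higher in the knockout, with the core motif in capitals (GRCm38.p6). The upstream window of the third, Eno2, held no core motif.
Bnip3: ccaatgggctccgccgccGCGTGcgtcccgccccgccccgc
Pfkfb3: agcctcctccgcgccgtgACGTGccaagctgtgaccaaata

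**Figure D4:**
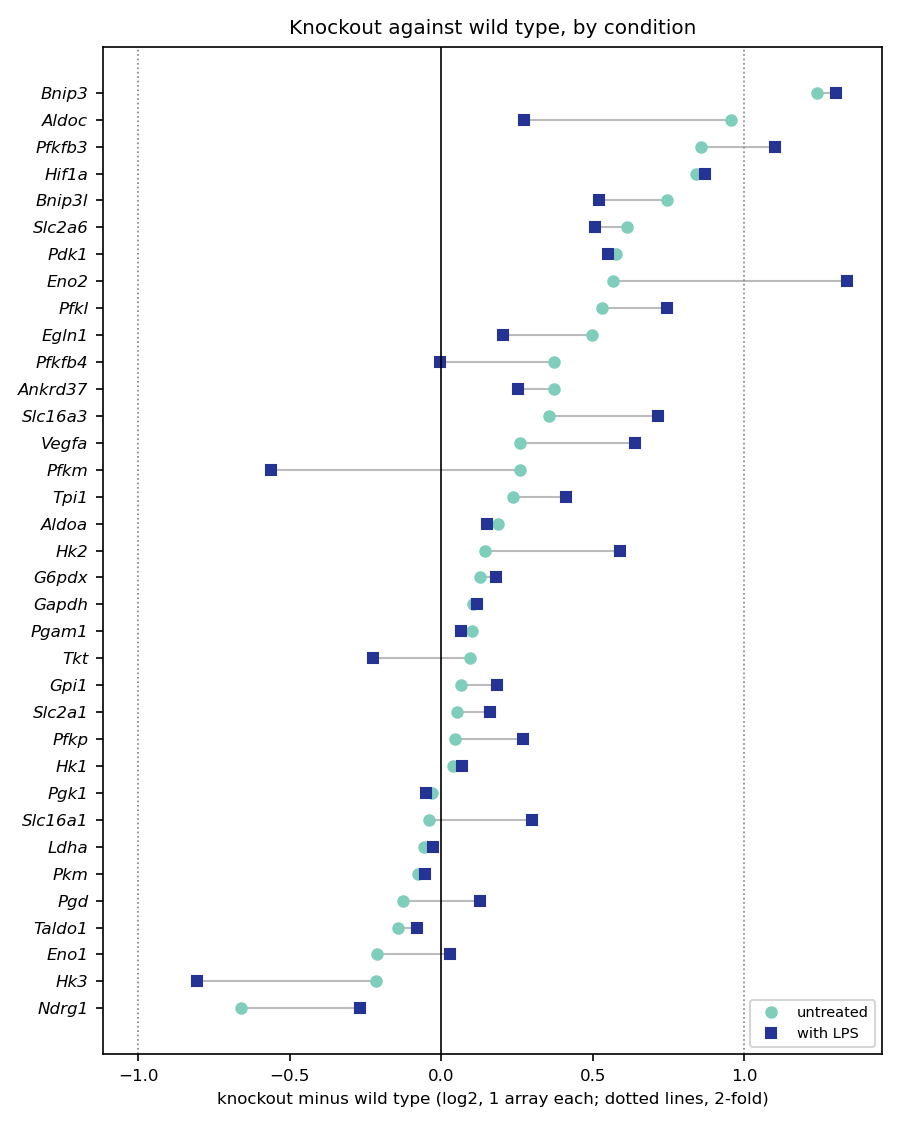
Knockout minus wild type in log2 level without LPS (circles) and with LPS (squares) for the 35 measured members, ordered by the difference without LPS, with 1 array on each side and dotted lines at 2-fold. Bnip3 lies past the line in both conditions, Pfkfb3 and Eno2 with LPS only, and Hk3 with LPS lies furthest left, at -0.81.

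In the RefSeq promoter table used here, 34 of the 36 members, all but Bnip3l and Ndrg1, matched an upstream window (250 bases before to 50 after a start), with 49 windows in all. ACGTG or GCGTG on either strand was found in 31 of the 34 genes, where 46.7% of all 27025 genes held it. It was found in 79.6% of the 49 windows, where 43.8% of all 32851 windows held it. A further motif was searched as well: a run of G, then places where any base was allowed, then a run of C. It was found in 30 of the 34 genes and 73.5% of the 49 windows, against 53.5% of all genes and 50.8% of all windows. An excess in the members was thus seen with this motif as well as with the hypoxia core, and its size differed by motif. The further motif was not matched to the core in length or base composition. It is therefore not a neutral control, and whether the excess is particular to the core was not tested. Searched singly, ACGTG was found in 22 of the 34 genes and 51.0% of the 49 windows. Over all genes and all windows it was found in 21.8% and 19.6%. GCGTG was found in 23 of the 34 genes and 57.1% of the 49 windows, against 35.2% and 32.4%. The member windows were also richer in G and C, with a median of 61% against 52.7% over all windows. The part of base composition in these counts was not tested. The 3 members with neither ACGTG nor GCGTG were Gpi1, Tpi1 and Eno2. Of the 6 members called higher with LPS in at least 1 genotype, 5 (Hk2, Slc2a6, Hk3, Pfkp and Vegfa) carried ACGTG or GCGTG in at least 1 window and Eno2 did not, and the 4 called lower (Pfkm, Pdk1, Egln1 and Ankrd37) carried it. For Vegfa only the window of its downstream start, within the gene, held the motif. Of the members within 2 technical SDs of 0 with LPS in both genotypes, Pkm, Ldha and Pfkfb3 carried it and Gpi1 did not. A match is a description of the letters and not of a bound site.

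Other genes of the same pathways were read from lists chosen by knowledge of the pathways. Of 25 further hypoxia genes, 23 could be compared with LPS in wild type, where 6 were higher and 3 lower, and 22 in the knockout, where 7 were higher and 4 lower. Over all genes 9.69% were higher and 8.58% lower in wild type, and 11% and 12.5% in the knockout. Ddit4, an inhibitor of mTORC1, had levels of 1.21, 3.84, 2.46 and 5.34, higher with LPS and higher in the knockout. Hilpda, a lipid droplet protein, was higher with LPS by 2.22 and 2.62, and Angptl4, an inhibitor of lipoprotein lipase, was lower, at -2.63 and -2.76. Genes of both directions thus occurred among the classical hypoxia targets outside the 36 members as well. In the knockout without LPS 4 of 23 were higher and 3 lower, where 3.08% and 3.9% of all genes were. With LPS 4 of 22 were higher and 0 lower, where 1.85% and 4.39% of all genes were. Stc2, a secreted glycoprotein, had levels of -0.31, 1.01, 2.08 and 3.51, so the knockout arrays were 2.39 and 2.50 above those of wild type.

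Of 22 other isozymes and regulators of glycolysis, 11 could be compared in wild type, where Pdp2, a phosphatase that reactivates pyruvate dehydrogenase, was higher by 1.20 and Eno3 and Slc16a7 were lower, at -1.48 and -1.39. In the knockout 13 could be compared, with 1 higher (Pdp2) and 6 lower, among them Eno3, the muscle enolase, at -2.46 and Slc16a7, the transporter MCT2, at -2.11. Among 27 genes of pyruvate entry and the tricarboxylic acid cycle 1 was higher in each genotype, by 6.58 and 6.86: Acod1, listed under its older name Irg1 and known for making itaconate. Of those 27 genes 23 in wild type and 21 in the knockout had a negative LPS difference, with medians of -0.22 and -0.31, and 0 were lower by 2-fold. Of 12 measured genes of glycogen and hexosamine metabolism 0 passed 2-fold in wild type and 1, Gnpnat1, at 1.04, in the knockout. The counts of these lists stand beside 9.69% of all genes higher and 8.58% lower with LPS in wild type. In the knockout the shares of all genes were 11% and 12.5%.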

How the data were processed

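Per the file headers, the authors' scanner files hold spot intensity extracted with Agilent Feature Extraction 10.7.1.1 (array design 074809), while the submitters' processing notes name version 9.5.1.1. The deposited processed signal is background-corrected intensity on a linear scale, not normalized between arrays. The deposited flags (unit other, 0 or 1) mark spots well above background, saturated or outlying. The deposited series table holds intensity whose log2 lay within 0.05 of a quantile normalization of these signals for at least 99.5% of probes, with column medians of 15.6; how the authors made it is not stated in the sources used here.

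Control and outlier spots were left out, log2 spots were averaged per probe, and each array's 75th percentile over probes was subtracted. A gene was represented by 1 probe: a value on all arrays, then above background on any, then the highest mean. Genes below background on 1 side were called only if a bound reached 2-fold. Probe coordinates are mm9, from the files, and gene names are those of the array files. The rule for named genes took members called in a comparison, members with probes over 1 apart, a main member of each role, up to 3 called genes of each further list, and Hsd17b4. Ndrg1, Aldoc and other uncalled members were described after their values were seen. The members and lists were chosen with earlier results of these data known. The alternatives tried were normexp (offset 50) for the background, quantile normalization, median centring, centring on 7 spike-in probes, 2 filters on dim probes, the mean of probes, a 1.5-fold threshold, the deposited table and, chosen after seeing the data, the 75th percentile over spots. The 2-fold rule was checked on simulated arrays. With 1 array in each group the spread between cultures is unknown, so that check gives no error rate for these data. Tools were Python 3.11.15, numpy 2.4.6, pandas 2.3.3, matplotlib 3.10.9, R 4.3.3 and limma 3.58.1. Some genes of the further lists are not reported here.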

Additional observations from a re-analysis of the deposited data

How the results depend on the processing

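All 126 recomputed differences of called members kept their sign. This is a weak check, since a called difference of 2-fold or more changes sign only if a setting moves it by as much. The mean of probes also leaves a member with 1 probe unchanged. The called members with 1 probe were Hk2, Pfkm, Eno2, Egln1, Bnip3 and Ankrd37. Of 18 calls, 13 held with normexp background correction, 15 with quantile normalization, 16 with median centring and 14 with spike-in centring. Of the same calls, 17 held with the mean of probes, 14 with the deposited table and 17 with the 75th percentile over spots. The stricter filter, no filter and the 1.5-fold threshold kept all 18, but could not have lost any. The called members were above background on all 4 arrays, and a lower threshold drops no call. The counts that moved by over 1.5 times, and the medians that moved by more than a technical SD, are as follows, and the cause was not tested. For LPS in wild type, spike-in centring gave 4 lower members, and the median became 0.0475 with quantile normalization, -0.00889 with spike-in centring, 0.0889 with the mean of probes and 0.0445 with the deposited table. For LPS in the knockout, 2 members were higher with spike-in centring and 3 with the deposited table, 2 were lower with normexp and 2 with median centring, and the median became 0.0661 with quantile normalization, 0.414 with median centring, 0.0381 with spike-in centring and 0.0922 with the deposited table. For knockout against wild type, 2 members were higher without LPS with median centring and 2 with the mean of probes, and the median with LPS became 0.35 with median centring. At 1.5-fold, 5 members were higher and 6 lower with LPS in wild type, 6 higher and 1 lower in the knockout without LPS, 8 higher and 1 lower there with LPS, and the difference of responses had 1 higher and 3 lower.

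Over all genes, higher and lower counts were 1765 and 1562 for LPS in wild type, 2029 and 2297 for LPS in the knockout, 568 and 718 for the untreated genotypes, 329 and 779 for the genotypes with LPS and 262 and 453 for the difference of responses. In the same order they were 1156 and 918, 1416 and 1343, 217 and 308, 126 and 307, and 144 and 231 with normexp, and 3228 and 3030, 3478 and 3967, 1878 and 2235, 1385 and 2211, and 2732 and 3065 without a filter. At 1.5-fold they were 3214 and 3188, 3724 and 4112, 1347 and 1373, 1108 and 1705, and 889 and 1281. The stricter filter left 253 and 286 for the untreated genotypes and 171 and 389 with LPS, and the mean of probes gave 875 and 948, and 511 and 992. Spike-in centring changed the split to 1312 higher and 2239 lower for LPS in wild type and to 1483 and 3188 in the knockout, and median centring to 2487 and 1868 there. Median centring also split the genotypes with LPS 531 to 614 and the difference of responses 355 to 333.

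No paired analysis was possible because each group had 1 array and the labels give no shared numbers. For the same reason no replicate could be left out. Dim probes limit Pfkm, Eno2 and Ankrd37, whose technical SDs reached 0.41, 0.32 and 0.29, the highest in the difference of responses. With few replicate-spot probes at low levels, these SDs are themselves uncertain.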

Other observations

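For 16 members, 2 or more probes above background on all 4 arrays lay at different coordinates. The gap was the level of the most 3′ probe minus that of the most 5′ probe, by the file's coordinates. Its median was 3.02 and 3.05 on the untreated and LPS arrays of wild type and 3.14 and 2.97 on those of the knockout. No exon annotation was at hand, so the places of the probes in the transcript are not established. The listed coordinates span 19 bases for the Gapdh probe taken as most 3′ and 12 for that of Bnip3l. The gap was smallest on the knockout LPS array in 7 of the 16 genes. This measure was chosen after the data were seen.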
